A study of Mus musculus with 12 samples.

Results

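Messenger RNA of C2C12 cells, a mouse myoblast line, was compared between homozygous PGAM2-K176R knock-in cells (the mutant) and WT cells at differentiation day 4 (d4). Of the 12 RNA sequencing libraries of the series, the 6 taken at d4 enter this comparison, 3 from WT and 3 from mutant cells, and they were chosen by their genotype and day labels alone. The study asked how gene expression differs when PGAM2 cannot be sumoylated at lysine 176. Day 4 cells of both genotypes had been moved from growth medium with a high content of fetal bovine serum, in which C2C12 cells stay as dividing myoblasts, to differentiation medium with little horse serum, in which they leave the cell cycle and fuse. All 6 libraries are of the C2C12 line. The mutant was made with CRISPR-Cas9 and a donor template and comes from 1 clone, so that the substitution and other features of that clone cannot be told apart. The treatment tag of the labels follows genotype and not day, calling the WT libraries of d4 undifferentiated, and was not used. The labels do not say whether the 3 libraries of a group came from separate cultures, so the tests below capture library-to-library spread, which may be technical.

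PGAM2 is the muscle form of phosphoglycerate mutase, a glycolytic enzyme that interconverts 3-phosphoglycerate and 2-phosphoglycerate, while PGAM1 is the form of most other tissues. SUMO proteins are small proteins that are attached to lysines of their targets. Skeletal muscle differentiation is driven by the myogenic regulatory factors: MYF5 and MYOD mark committed myoblasts, and myogenin, with MEF2 factors, switches on the genes of the sarcomere, of excitation-contraction coupling and of cell fusion. A myotube is the multinucleated cell that results.

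Lysine 176 lies in exon 2 of 3 of Pgam2, on chromosome 11 of the mm10 assembly, minus strand. The coding sequence around it is given because this is the codon that the knock-in replaces, with the reference codon of lysine 176 in capitals (chr11:5803045-5803089, minus strand, codon at 5803066 to 5803068, reference sequence of the GENCODE transcript).
Pgam2 codon 176: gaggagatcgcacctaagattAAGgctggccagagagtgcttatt
The deposited tables hold reads per gene, so the substitution itself was not read in these data.

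Total reads assigned to genes ranged from 16165803 to 19991460 in WT and from 16098407 to 20748164 in mutant libraries at d4. Correlations of log2(FPKM + 1) across genes were 0.987 to 0.990 within WT, 0.989 to 0.991 within mutant and 0.927 to 0.930 between genotypes, where FPKM is a level per gene scaled by gene length and sequencing depth. On the first principal component, which held 81.7% of the variance, the genotypes lay apart. Mutant replicate 2 carried low levels of digestive enzyme RNA of the exocrine pancreas, with Try4, a trypsin, at 0.309, 4.26 and 0 FPKM in mutant replicates 1, 2 and 3 and Pnlip, pancreatic lipase, at 0.200, 3.20 and 0 FPKM, while both were at 0 in the 3 WT libraries. Of 10 skeletal muscle markers checked, of which Myod1 also marks myoblasts (Des, Myog, Myod1, Ckm, Acta1, Myh3, Tnnt3, Actn2, Ttn and Mymk), each was above 10 FPKM in every WT library; in mutant libraries Actn2 lay below 0.1 FPKM, Ckm below 10 FPKM and the other 8 above 10 FPKM.

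Of 24787 genes listed at d4, 13252 reached 0.5 FPKM in no fewer than 3 libraries and were tested. In mutant cells 233 genes were higher (1.76% of those tested) and 792 were lower (5.98%), 7.73% in all, at an adjusted p under 0.05 and an absolute log2 difference above 1 on the log2(FPKM + 1) scale (limma, Benjamini-Hochberg). This scale understates the differences of genes at low levels. Without the fold threshold, 3500 genes (26.4%) were higher and 3886 (29.3%) lower, and the groups did not overlap for 8398 genes (63.4%). An unadjusted p under 0.05 was reached by 60.8% of genes tested, the share against which such counts are read below. The edgeR test on reads called 721 of 14175 genes higher (5.09%) and 1537 lower (10.8%). Among 5201 genes with a mean of at least 10 FPKM in a group, 111 (2.13%) were higher and 400 (7.69%) lower. The median log2 difference of all genes tested was 0.0044. Without mutant replicate 2, 253 genes were higher and 800 lower.

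**Figure D1:**
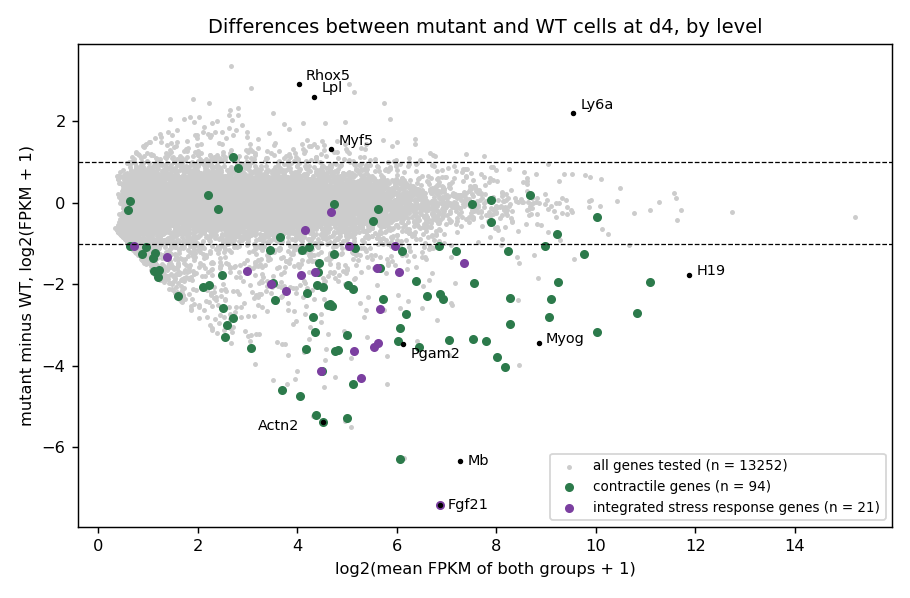
Log2 difference between mutant and WT cells at d4 (y axis, log2(FPKM + 1) scale) against the mean level of both groups (x axis, log2(mean FPKM + 1)) for 13252 genes in grey, 94 contractile genes in green and 21 genes of the integrated stress response in purple, with named genes in black and the fold threshold as dashed lines. Most contractile and stress response genes lie below the lower line, with Fgf21 lowest at -7.42, and Rhox5 and Lpl lie above the upper line.

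Pgam2 transcript was lower in the mutant. It was at 122, 129 and 132 FPKM in WT replicates 1, 2 and 3 and at 10.6, 10.3 and 10.9 FPKM in mutant replicates 1, 2 and 3. Every mutant library lay below every WT library, with a log2 difference of -3.47 (standard error 0.04, adjusted p = 5.81e-09 from limma), and the mutant mean was 8.32% of that of WT. Pgam1 was at 66.1, 72.7 and 79.6 FPKM in WT and 78.8, 78.01 and 80.9 FPKM in mutant libraries, groups that overlapped, with a log2 difference of 0.12 (adjusted p = 0.143). In WT cells the mean of Pgam2 was 128 ± 5.09 FPKM and that of Pgam1 72.8 ± 6.74 FPKM. In mutant cells the order was the other way, at 10.6 ± 0.337 and 79.2 ± 1.49 FPKM. Libraries were made from whole cultures, so fewer cells of a type and less RNA per cell cannot be told apart here or in any later result.

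The genes of the contractile apparatus were lower in the mutant as a group. Of 94 tested genes in 5 lists (myosins, thick filament and M-line, thin filament, Z-disc, and excitation-contraction coupling), 78 were lower (82.98%, against 5.98% of all genes tested) and 1 was higher. Their median log2 difference was -2.04, and their median level in mutant cells was 17.3% of WT. By edgeR 79 of 95 were lower and 2 higher.

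Of 14 tested myosin genes 13 were lower, with a median of -2.39. Myh4, the heavy chain of the fastest mouse fibres, was at 40.02, 37.01 and 40.9 FPKM in the 3 WT libraries and 0.0740, 0.123 and 0.0804 FPKM in the 3 mutant libraries. All mutant values were close to 0, and the log2 difference was -5.20 (standard error 0.06, adjusted p = 4.67e-09). Myh1, the heavy chain of another class of fast fibres, went from 134, 126 and 132 FPKM in WT to 0.755, 0.429 and 0.866 FPKM in mutant libraries (-6.30). Myh8, the perinatal heavy chain, was at 23.2, 24.04 and 23.9 FPKM in WT and 0.0168, 0.0470 and 0.0257 FPKM in mutant libraries, and Myh7, the slow heavy chain, at 9.74, 9.59 and 9.45 FPKM in WT and 0.327, 0.284 and 0.365 FPKM in mutant libraries. Among heavy chains the embryonic gene Myh3 was most abundant in both genotypes, at 559, 554 and 544 FPKM in WT and 71.1, 68.6 and 68.04 FPKM in mutant cells, a mutant mean of 12.5% of WT. Myh8, Myh4 and Myh1 thus stood at 0.126%, 0.235% and 0.523% of WT, below Myh3. Of the light chains, Myl4, the embryonic and atrial form, was at 9.64% of WT and Myl1, of fast fibres, at 41.8%. Mylk2, the skeletal muscle myosin light chain kinase, was the member not called, at 15.6, 14.4 and 15.1 FPKM in WT and 8.53, 7.22 and 8.34 FPKM in mutant cells (-0.83). Heavy chain genes resemble each other and several lie in a cluster on chromosome 11. The sources used here do not state how reads that fit several of them were counted, and values of single members are uncertain to that extent.

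Thick filament and M-line genes were lower for 13 of 14 tested (median -2.09). Mybpc1, slow myosin-binding protein C, was at 9.67, 9.40 and 9.65 FPKM in WT and 0.0218, 0.0204 and 0.174 FPKM in mutant libraries. Myom3, a myomesin of the M-line, was at 52.7, 47.7 and 52.2 FPKM in WT and 3.45, 3.01 and 3.28 FPKM in mutant libraries, and Smpx, a small muscle protein of the X chromosome, at 45.4, 48.2 and 53.8 FPKM in WT and 3.17, 3.39 and 2.61 FPKM in mutant libraries. Mybph, myosin-binding protein H, was the most abundant of those named and was at 14.3% of WT. The giant spring protein gene Ttn was at 39.8, 34.7 and 34.4 FPKM in WT and 15.98, 13.2 and 14.8 FPKM in mutant libraries, a smaller difference of -1.25. Trim55, a ubiquitin ligase that binds titin, did not reach the threshold, at 51.4, 49.2 and 50.9 FPKM in WT and 44.4, 45.5 and 46.6 FPKM in mutant libraries.

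Of 20 tested thin filament genes 17 were lower (median -2.35). Actc1, the cardiac alpha actin that embryonic skeletal muscle also uses, was at 544, 564 and 513 FPKM in the 3 WT libraries and 30.002, 32.4 and 33.9 FPKM in the 3 mutant libraries. The groups were far apart, at a log2 difference of -4.03 (standard error 0.05, adjusted p = 8.47e-09). Tnni1, slow troponin I, had 469, 480.2 and 494 FPKM in WT and 32.6, 35.7 and 33.2 FPKM in mutant libraries (-3.79). Neb, the thin filament ruler nebulin, was at 8.94% of WT, Lmod2, which lengthens thin filaments, at 8.82%, and Klhl41, a kelch protein that stabilizes nebulin, at 9.25%. Acta1, the adult skeletal actin and the most abundant of these genes, went from 3067, 3201 and 3168 FPKM in WT to 455, 493 and 505 FPKM in mutant cells. Members not called were Tpm3, slow tropomyosin (-0.44), Tnni3, cardiac troponin I (0.20), and Tmod4, of the pointed end (0.04). Tnni3 was at 3.17, 3.11 and 3.56 FPKM in WT and 3.86, 4.16 and 3.72 FPKM in mutant libraries, and Tmod4 lay below 1 FPKM in all 6.

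**Figure D2:**
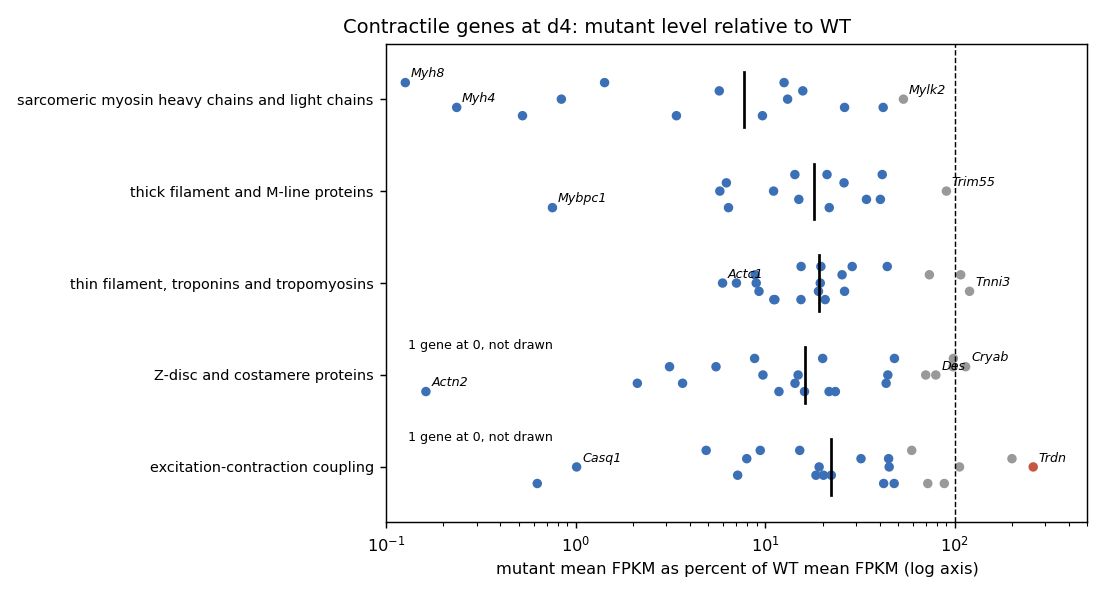
Mean mutant level as a percent of the mean WT level (x axis, log axis) for the tested genes of 5 contractile lists (rows), with blue points lower, red higher and grey not called, a black line at each list's median and a dashed line at equal levels. Medians lie between 7.68% (myosins) and 22.3% (excitation-contraction coupling), Actn2, Myh8 and Myh4 lie far to the left, and Trdn is the red point. Myot and Cacng6, at 0 in the mutant, are not drawn.

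At the Z-disc 18 of 23 tested genes were lower (median -2.01). Actn2, alpha-actinin 2, which cross-links thin filaments, was at 41.9, 45.98 and 42.7 FPKM in WT and at 0.0782, 0.0851 and 0.0478 FPKM in mutant libraries. Its log2 difference was -5.38 (standard error 0.06, adjusted p = 4.61e-09). Actn3, the fast-fibre alpha-actinin, was higher than Actn2 in both genotypes, at 414, 418 and 418 FPKM in WT and 183, 181 and 189 FPKM in mutant cells, a difference of -1.17. Tcap, which caps titin, was at 40.1, 43.4 and 40.5 FPKM in WT and 2.35, 0.779 and 1.40 FPKM in mutant libraries. Myot, myotilin, had no read in any mutant library and 0.828, 1.23 and 1.203 FPKM in WT, so it was at least 43.8-fold lower in the mutant by reads against a floor of 3 reads over the group. Des, desmin, the intermediate filament of muscle, stayed close, with 1126, 1160.3 and 1197 FPKM in WT and 903, 925 and 931 FPKM in mutant cells (-0.34). Flnc, filamin C, was at 189, 183 and 176 FPKM in WT and 184, 169.8 and 183 FPKM in mutant libraries, groups that overlapped. Cryab, a small heat shock protein that binds desmin, was at 378, 385 and 392 FPKM in WT and 424, 438 and 451 FPKM in mutant libraries (0.19).

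In excitation-contraction coupling 17 of 23 tested genes were lower and 1 was higher (median -1.61). Casq1, the calcium store protein of fast fibres, was at 58.3, 64.97 and 60.9 FPKM in WT and at 0.380, 0.733 and 0.744 FPKM in mutant libraries, a log2 difference of -5.28 (standard error 0.10, adjusted p = 3.46e-08). Its cardiac and slow-fibre relative Casq2 was more abundant, at 412, 396 and 403 FPKM in WT and 38.3, 36.8 and 38.6 FPKM in mutant cells (-3.38). Pvalb, parvalbumin, a cytosolic calcium buffer of fast fibres, was at 28.3, 32.4 and 32.3 FPKM in WT and 0.332, 0.133 and 0.116 FPKM in mutant libraries. Srl, sarcalumenin, was at 7.97% of WT, and Scn4a, the muscle sodium channel, at 7.13%. The voltage sensor Cacna1s, at 22.3% of WT, and the calcium release channel Ryr1, at 44.96%, were lower by less. Trdn, triadin, which ties calsequestrin to the release channel, was the member higher in the mutant, at 3.13, 2.96 and 3.13 FPKM in WT and 7.91, 7.30 and 8.64 FPKM in mutant libraries (1.13). Jsrp1, a membrane protein of the triad, was at 222, 229 and 238 FPKM in WT and 237, 243 and 247 FPKM in mutant libraries, groups that overlapped.

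Promoter sequences of the lower contractile genes were searched because myogenic factors and serum response factor bind known short motifs. RefSeq windows of 250 bases before the start (GRCm38.p6) were matched by symbol for 9317 of the 13252 genes tested and for 63 of the 78 contractile genes called lower. The E-box CAGCTG, searched on both strands, which read alike, lay in 39.7% of those 63 windows, in 21.2% of 546 windows of all lower genes, in 18.2% of 148 windows of higher genes and in 11.98% of all 9317. The MEF2 site lay in 20.6%, 6.59%, 2.03% and 1.72% of the same windows, and the CArG box of serum response factor in 7.94%, 1.83%, 0.676% and 1.202%. Matches of these 3 motifs overlapped in no window. A match is a description of the sequence and not evidence of binding. The windows of Pgam2 (chr11:5803797-5804046, minus strand), Myh4 (chr11:67237562-67237811, plus strand) and Actc1 (chr2:114052876-114053125, minus strand) are shown as examples that hold these motifs, 5′ to 3′ in the direction of transcription, with capitals for the E-box and the MEF2 site in Pgam2, for the MEF2 site, the CArG box and the E-box in Myh4, in that order, and for the CArG box in Actc1.
Pgam2 promoter: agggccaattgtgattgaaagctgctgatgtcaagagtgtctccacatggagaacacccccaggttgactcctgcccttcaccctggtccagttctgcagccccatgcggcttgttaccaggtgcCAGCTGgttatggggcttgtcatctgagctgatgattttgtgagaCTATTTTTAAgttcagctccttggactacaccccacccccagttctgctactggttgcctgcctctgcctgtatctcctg
Myh4 promoter: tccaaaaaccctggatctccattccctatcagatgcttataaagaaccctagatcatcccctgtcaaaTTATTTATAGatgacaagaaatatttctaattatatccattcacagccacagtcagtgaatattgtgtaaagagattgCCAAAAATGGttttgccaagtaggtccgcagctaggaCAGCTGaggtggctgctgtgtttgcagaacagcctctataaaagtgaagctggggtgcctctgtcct
Actc1 promoter: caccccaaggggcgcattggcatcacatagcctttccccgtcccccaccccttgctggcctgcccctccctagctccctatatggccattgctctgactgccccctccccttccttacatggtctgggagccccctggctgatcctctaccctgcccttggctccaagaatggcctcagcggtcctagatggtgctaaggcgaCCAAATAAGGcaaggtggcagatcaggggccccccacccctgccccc
In Pgam2 the E-box began 125 bases and the MEF2 site 80 bases before the start. In Myh4 the MEF2 site began 182, the CArG box 104 and the E-box 67 bases before it, and in Actc1 the CArG box 47 bases.

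Among myogenic transcription factors 7 of 29 tested were lower (24.1%, against 5.98% of all genes tested) and 1 was higher (3.45%, against 1.76%). Their median was -0.06. Myog, myogenin, was at 836, 878 and 819.8 FPKM in WT replicates 1, 2 and 3 and at 74.7, 74.7 and 80.2 FPKM in mutant replicates 1, 2 and 3. The mutant mean was 9.06% of WT, with a log2 difference of -3.45 (standard error 0.04, adjusted p = 5.81e-09). Myod1, which acts before myogenin, was at 115, 125 and 118 FPKM in WT and 89.6, 96.6 and 97.6 FPKM in mutant cells, a log2 difference of -0.33 that passed the p threshold (adjusted p = 7.44e-04) and not the fold threshold. Myf5, the factor of committed myoblasts, was higher in the mutant, at 13.9, 13.4 and 13.4 FPKM in WT and 33.3, 35.8 and 37.3 FPKM in mutant libraries (1.32, standard error 0.05, adjusted p = 8.55e-07). The 3 factors of one family thus lay in 3 positions: Myf5 higher, Myod1 within the fold threshold and Myog lower. Mef2c was at 15.7, 15.1 and 13.4 FPKM in WT and 1.62, 1.74 and 1.98 FPKM in mutant cells (-2.50), while its relative Mef2d was at 57.7, 56.98 and 56.3 FPKM in WT and 54.8, 53.7 and 54.9 FPKM in mutant libraries (-0.06). Tead4, a TEA domain factor downstream of MYOD, was at 14.7% of WT, Hes6, a promoter of differentiation, at 20.1%, and Eya4, a transcriptional cofactor, at 11.7%. Over all 829 tested genes with a transcription factor family in the deposited annotation, 9 were higher (1.09%, against 1.76% of all genes tested) and 36 lower (4.34%, against 5.98%).

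**Figure D3:**
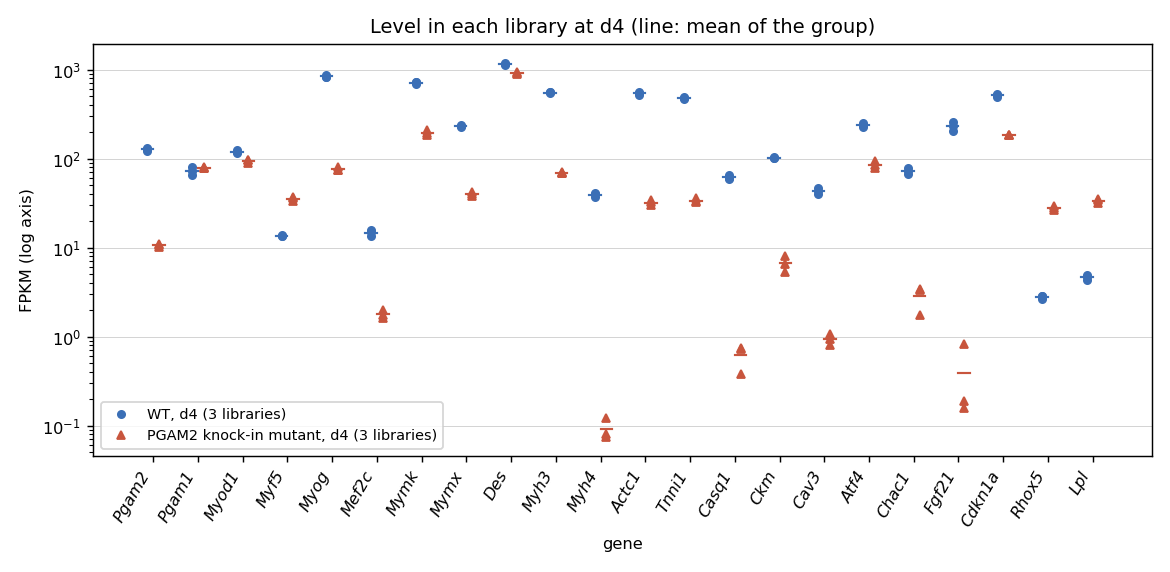
FPKM in each of the 3 WT (blue circles) and 3 mutant (red triangles) libraries at d4 on a log axis for 22 genes, with a short line at each group's mean. Myog, Mymk, Mymx, Myh3, Actc1 and Fgf21 lie lower in all 3 mutant libraries, Myod1 and Des lie close, and Myf5, Rhox5 and Lpl lie higher.

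The fusion list held 3 genes lower of 17 tested (17.6%, against 5.98% of all genes tested), with a median of 0.26. Mymk, myomaker, a membrane protein required for myoblast fusion, was at 687, 721 and 729.6 FPKM in WT and 186, 194 and 208 FPKM in mutant libraries (-1.86). Mymx, myomixer, its partner in pore formation, was at 226, 233 and 238 FPKM in WT and 37.7, 40.1 and 42.6 FPKM in mutant libraries (-2.51, standard error 0.05). Jam2, an adhesion molecule, was at 40.6% of WT. Of the other members, the adhesion molecule Cdh15, M-cadherin, was at 185, 187 and 184 FPKM in WT and 319.5, 322 and 327 FPKM in mutant cells, a difference of 0.80 that did not reach the fold threshold. By edgeR 5 of 19 were lower and 2 higher, against 10.8% and 5.09% of all genes in that test.

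Genes of muscle progenitors were lower for 5 of 22 tested (22.7%, against 5.98% of all genes tested) and higher for 0 (median -0.20). The highest member was at 0.992, just under the fold threshold, and edgeR called 5 of 22 lower and 1 higher. Pax7, the satellite cell factor, was at 4.02, 3.83 and 4.29 FPKM in WT and 0.101, 0.0473 and 0.114 FPKM in mutant libraries (-2.21). Spry1, an inhibitor of growth factor signalling, was at 13.5, 16.2 and 13.6 FPKM in WT and 2.31, 2.52 and 1.94 FPKM in mutant libraries, and Fgfr4, a receptor for fibroblast growth factors, at 3.48, 3.09 and 3.18 FPKM in WT and 0.698, 0.378 and 0.239 FPKM in mutant libraries. Itga7, the laminin receptor of muscle, overlapped between groups at 311, 313 and 311 FPKM in WT and 318, 307 and 301 FPKM in mutant libraries. Thus Myf5 and Pax7, genes of undifferentiated muscle cells, lay on opposite sides in the mutant.

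At the neuromuscular junction 5 of 11 tested genes were lower (45.5%, against 5.98% of all genes tested). Chrng, the embryonic gamma subunit of the acetylcholine receptor, was at 186, 194 and 204 FPKM in WT and 77.8, 77.2 and 76.1 FPKM in mutant cells (-1.33), and Chrnd, the delta subunit, at 138, 139 and 136 FPKM in WT and 63.8, 65.7 and 66.5 FPKM in mutant libraries (-1.06). The alpha subunit Chrna1 differed by -0.61 and the beta subunit Chrnb1 by 0.09, under the fold threshold. Of 20 tested genes of the dystrophin complex and caveolae 7 were lower (35%, against 5.98% of all genes tested). Cav3, caveolin 3 of muscle caveolae, was at 43.5, 39.9 and 47.3 FPKM in WT and at 1.07, 0.798 and 0.941 FPKM in mutant libraries, a log2 difference of -4.52 (standard error 0.08, adjusted p = 2.70e-08). The muscle-specific caveolar coat gene Cavin4 was at 13.1% of WT, and the membrane repair genes Trim72 and Dysf were at 8.93% and 17.4%. The more widely expressed Cavin1 was at 165, 171 and 172 FPKM in WT and 217, 213 and 216 FPKM in mutant libraries (0.34), and Dag1, dystroglycan, differed by -0.13.

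In the glycolytic pathway 4 of 28 tested genes were lower (14.3%, against 5.98% of all genes tested), with a median of -0.22. All 4 are muscle forms or of a transporter. Eno3, muscle enolase, was at 557, 562 and 629 FPKM in WT and 113, 110.3 and 107 FPKM in mutant cells (-2.39). Pfkm, muscle phosphofructokinase, was at 141, 144 and 156 FPKM in WT and 35.4, 35.8 and 34.5 FPKM in mutant libraries (-2.03). Slc16a3, which exports lactate, was at 6.64, 7.58 and 7.54 FPKM in WT and 0.493, 0.408 and 0.398 FPKM in mutant libraries (-2.52), and Pgam2 was the fourth. The most abundant members not called were closer: Aldoa differed by -0.73, Gapdh by -0.34 and Pkm by 0.11. With edgeR 6 of 30 were lower, against 10.8% of all genes in that test.

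Glycogen and phosphocreatine genes were lower for 8 of 22 tested (36.4%, against 5.98% of all genes tested) and higher for 1 (4.55%, against 1.76%). Ckm, muscle creatine kinase, was at 101, 103 and 104 FPKM in WT and 5.38, 6.46 and 8.12 FPKM in mutant libraries. It stood at 6.51% of WT, with a log2 difference of -3.77 (standard error 0.12, adjusted p = 3.38e-07). Pygm, muscle glycogen phosphorylase, was at 71.9, 76.3 and 79.5 FPKM in WT and 6.77, 6.81 and 6.73 FPKM in mutant libraries, and Ckb, the brain form of creatine kinase, at 18.2% of WT. Of the AMP deaminases, the muscle form Ampd1 was at 1.65, 1.30 and 1.36 FPKM in WT and 0.0418, 0.0130 and 0.0170 FPKM in mutant cells (-1.25). Ampd3, the form of red cells and other tissues, went the other way, at 8.58, 7.92 and 7.92 FPKM in WT and 24.5, 23.8 and 23.6 FPKM in mutant cells (1.45). Gatm, of creatine synthesis, differed by -0.29.

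Few mitochondrial genes passed the fold threshold, while many were lower by the adjusted p alone. Of 75 nuclear subunits of oxidative phosphorylation tested, 5 were lower and 0 higher (6.67%, against 5.98% of all genes tested), with a median of -0.37, and by the adjusted p alone 56 were lower and 2 higher. Cox6a2, the heart and muscle form of a cytochrome oxidase subunit, was at 103, 113 and 102 FPKM in WT and 3.56, 5.02 and 3.20 FPKM in mutant libraries (-4.46), while Cox6a1, the form of other tissues, was at 254, 295 and 286 FPKM in WT and 258, 257 and 257 FPKM in mutant libraries, groups that overlapped. Muscle forms Cox8b and Cox7a1 were also lower, at 23.5% and 30.2% of WT, beside Ndufs4 and Atp5o. Of 13 messenger RNAs encoded in mitochondrial DNA and 52 mitochondrial ribosomal protein genes, 0 were called by limma, though 9 and 40 had an unadjusted p under 0.05, and edgeR called 1 of the ribosomal protein genes. Their medians were -0.18 and -0.29. By the adjusted p alone 7 of the former were lower and 2 higher, and 36 of the latter were lower and 1 higher, against 29.3% lower and 26.4% higher of all genes tested. Pcx, pyruvate carboxylase, was the member called of 27 genes of the TCA cycle and pyruvate oxidation (-1.05), of which 21 were lower and 4 higher by the adjusted p alone, and it lost the call without mutant replicate 2. Mb, myoglobin, was at 289, 323 and 304 FPKM in WT and at 3.61, 2.32 and 2.55 FPKM in mutant libraries, a log2 difference of -6.34 (standard error 0.12, adjusted p = 3.46e-08). Cd36, a fatty acid transporter, was at 10.7, 11.2 and 9.87 FPKM in WT and 0.0826, 0.0900 and 0.0169 FPKM in mutant cells, and Fabp3, of fatty acid transport in heart and muscle, at 15.2% of WT. Lpl, lipoprotein lipase, was higher in the mutant, at 4.93, 4.70 and 4.36 FPKM in WT and 31.8, 35.001 and 34.1 FPKM in mutant libraries (2.61).

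**Figure D4:**
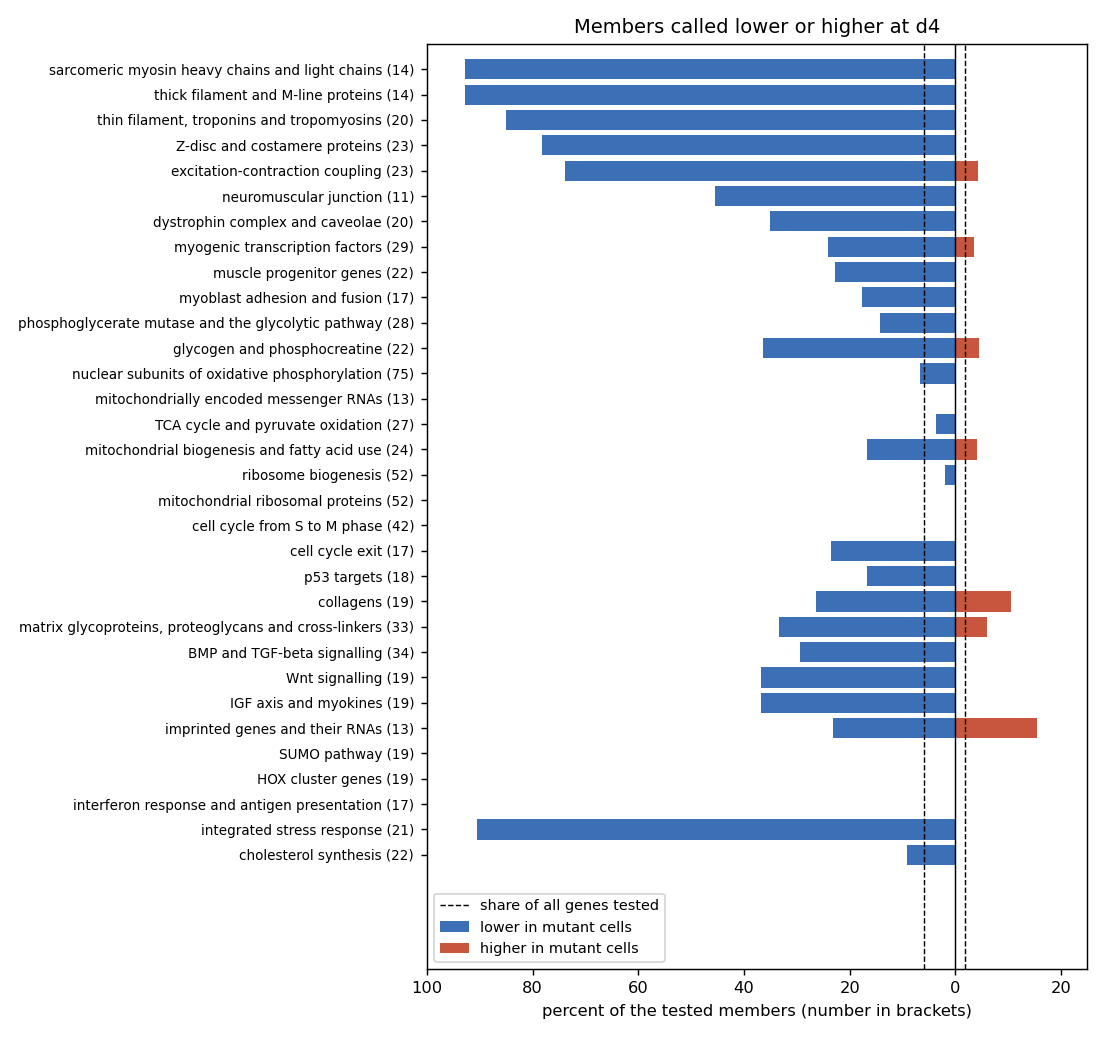
Percent of the tested members of each gene list called lower (blue, to the left) or higher (red, to the right) in mutant cells at d4, with the number tested in brackets and dashed lines at the shares of all genes tested (5.98% lower, 1.76% higher). The contractile lists and the integrated stress response reach 73.9% to 92.9% lower, while mitochondrially encoded, mitochondrial ribosomal, S to M phase, SUMO, HOX and interferon lists hold no call.

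The integrated stress response had the largest share of lower genes among the lists outside the contractile apparatus. In this response, stalled initiation of translation raises the factor ATF4, which switches on genes of amino acid uptake and synthesis. Of 21 tested genes 19 were lower (90.5%, against 5.98% of all genes tested) and 0 higher. The 21 had a median log2 difference of -1.70 and a median mutant level of 20.6% of WT. On the log2(FPKM + 1) scale Fgf21, a hormone that stressed muscle secretes, had the largest difference of all genes named. By edgeR on the d4 libraries Cilp (-9.96), Myh8 (-9.57) and Actn2 (-9.20) had larger differences than Fgf21 (-9.11). Fgf21 was at 231, 261 and 205 FPKM in WT replicates 1, 2 and 3 and 0.156, 0.825 and 0.191 FPKM in mutant replicates 1, 2 and 3. Its log2 difference was -7.42 (standard error 0.18, adjusted p = 1.12e-07), and each mutant library held under 1 FPKM. Atf4 itself was at 239, 248 and 225 FPKM in WT and 84.4, 93.9 and 78.6 FPKM in mutant cells (-1.46). Chac1, which degrades glutathione, was at 73.1, 78.4 and 66.6 FPKM in WT and 1.75, 3.41 and 3.36 FPKM in mutant libraries (-4.29). Trib3, a pseudokinase that inhibits ATF4, was at 42.6, 44.2 and 36.2 FPKM in WT and 1.44, 1.37 and 1.34 FPKM in mutant libraries (-4.14). Mthfd2, of mitochondrial one-carbon metabolism, was at 66.3, 68.3 and 58.6 FPKM in WT and 4.73, 3.94 and 4.06 FPKM in mutant libraries (-3.64).

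Genes of serine and asparagine synthesis followed in the same list. Asns, asparagine synthetase, was at 88.8, 96.8 and 80.9 FPKM in WT and 6.81, 7.51 and 7.25 FPKM in mutant libraries (-3.45). The serine pathway genes Phgdh, Psat1 and Psph were at 15.6%, 29.96% and 24.97% of WT. Slc7a5, an amino acid transporter, was at 7.56% of WT and its partner Slc3a2 at 47.2%. The members not called were Ddit3, a factor linked to cell death, at 84.4% of WT (-0.23), and Ppp1r15a, a phosphatase subunit that restores translation (-0.66). The number lower was 16 with quantile normalization and 15 with a pseudocount of 5.

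The element TGATGNAA, to which ATF4 binds with a partner, was added after these genes were seen to differ. On both strands it lay in 5 of 18 windows of stress response genes called lower (27.8%), in 3.11% of windows of all lower genes, in 2.03% of windows of higher genes and in 1.92% of all. It overlapped an E-box match in 2 windows. The genes with a match were Asns, Atf3, Chac1, Fgf21 and Nupr1. Fgf21 and Chac1 were the stress response genes with the largest differences on the log2(FPKM + 1) scale. The windows of Fgf21 (chr7:45615491-45615740, minus strand) and Chac1 (chr2:119350992-119351241, plus strand) are shown with the element in capitals, which in both reads on the opposite strand. In Chac1 an E-box near the end is also in capitals.
Fgf21 promoter: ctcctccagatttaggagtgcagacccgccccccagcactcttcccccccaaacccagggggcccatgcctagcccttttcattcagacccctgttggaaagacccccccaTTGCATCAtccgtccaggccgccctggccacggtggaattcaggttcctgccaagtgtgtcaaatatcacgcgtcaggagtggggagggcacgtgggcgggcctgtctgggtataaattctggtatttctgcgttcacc
Chac1 promoter: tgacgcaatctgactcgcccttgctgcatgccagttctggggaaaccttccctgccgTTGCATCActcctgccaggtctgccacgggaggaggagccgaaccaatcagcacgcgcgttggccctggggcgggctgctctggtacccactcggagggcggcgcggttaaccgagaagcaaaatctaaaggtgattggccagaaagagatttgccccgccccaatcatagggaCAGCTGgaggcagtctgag
In Fgf21 the element began 139 bases and in Chac1 193 bases before the start.

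Cell cycle genes from S to M phase had 0 called of 42 by limma and 0 by edgeR, with 18 at an unadjusted p under 0.05 and a median of -0.09. Rrm2, a subunit of ribonucleotide reductase, was at 53.4, 58.8 and 59.01 FPKM in WT and 30.2, 32.9 and 32.4 FPKM in mutant cells (-0.82), and Pcna, the replication clamp, differed by -0.30. Of 23 tested genes of the histone clusters 0 were higher and 2 lower (8.70%, against 5.98% of all genes tested), Hist1h1e and Hist1h2bc, chosen after their values were seen. The median log2 difference of the 23 was -0.43, and the median mutant level was 50.3% of WT. By the adjusted p alone 11 of the 23 were lower and 1 higher, and by edgeR 6 of 18 were lower and 1 higher. Genes of cell cycle exit were lower for 4 of 17 (23.5%, against 5.98% of all genes tested), with a median of -0.008. Of the 17, 5 were lower and 6 higher by the adjusted p alone, and by edgeR 4 were lower and 1 higher. Cdkn1a, the p21 inhibitor of cyclin-dependent kinases, was at 490.2, 513 and 539 FPKM in WT and 185, 185 and 186 FPKM in mutant libraries, a log2 difference of -1.47 (standard error 0.04, adjusted p = 1.92e-07). Cdkn1c, the p57 inhibitor, was at 2.54, 3.88 and 3.35 FPKM in WT and 0.0242, 0.0679 and 0.148 FPKM in mutant libraries, and Gadd45a, a stress-induced growth arrest gene, at 185, 178 and 179 FPKM in WT and 87.4, 87.2 and 90.8 FPKM in mutant libraries. Among 18 p53 targets 3 were lower (16.7%, against 5.98% of all genes tested), and by the adjusted p alone 9 were lower and 6 higher. The 3 were Cdkn1a, Sesn2 (-1.998), an inhibitor of mTORC1 signalling, and Gdf15 (-1.77), a stress hormone. Sesn2 and Gdf15 are also on the stress response list.

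Collagen and matrix genes went both ways. Of 19 collagens tested 5 were lower (26.3%, against 5.98% of all genes tested) and 2 higher (10.5%, against 1.76%). Col1a1, the main chain of type I collagen, was at 47.5, 52.3 and 51.4 FPKM in WT and 1.75, 1.80 and 1.39 FPKM in mutant libraries (-4.28, standard error 0.07). Col12a1, of fibril-associated type XII collagen, was at 9.45% of WT, and Col3a1, of type III, overlapped between groups at 422, 429 and 413 FPKM in WT and 419, 408 and 411 FPKM in mutant libraries. The higher members were Col11a1, a fibrillar chain of cartilage, at 0.111, 0.137 and 0.0844 FPKM in WT and 2.35, 2.60 and 2.91 FPKM in mutant cells, and Col4a6, a basement membrane chain, at 0.0786, 0.0322 and 0.0635 FPKM in WT and 1.97, 1.82 and 2.12 FPKM in mutant libraries. Of 33 matrix glycoproteins, proteoglycans and cross-linkers, 11 were lower (33.3%) and 2 higher (6.06%), against the same shares of all genes tested. Bgn, the proteoglycan biglycan, was at 245, 257 and 229 FPKM in WT and 16.1, 18.1 and 17.6 FPKM in mutant libraries (-3.74), and Fbln1, fibulin 1, at 21.1, 22.9 and 23.9 FPKM in WT and 1.10, 1.18 and 1.09 FPKM in mutant libraries. Loxl2, which cross-links collagen (1.71), and Thbs2, thrombospondin 2 (1.51), were the higher members. Outside these lists, Mmp2, the gelatinase, was among the 10 genes with the largest differences, at 142, 139.7 and 135 FPKM in WT and 0.851, 0.876 and 0.700 FPKM in mutant libraries (-6.27).

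In BMP and TGF-beta signalling 10 of 34 tested genes were lower (29.4%, against 5.98% of all genes tested) and 0 higher (against 1.76%). Fst, follistatin, which binds activin and myostatin, was at 13.6, 14.9 and 13.8 FPKM in WT and 0.560, 0.613 and 0.606 FPKM in mutant libraries (-3.25), and the ligand Bmp4 was at 7.32, 8.44 and 7.52 FPKM in WT and 0.0440, 0.0616 and 0 FPKM in mutant libraries (-3.08). The receptor Tgfbr2 was at 39.3, 38.4 and 38.2 FPKM in WT and 67.6, 67.8 and 69.6 FPKM in mutant libraries, a difference of 0.81 under the fold threshold. In Wnt signalling 7 of 19 were lower by limma (36.8%) and 13 of 25 by edgeR, against 5.98% and 10.8% of all genes tested. The ligand Wnt10a was at 8.19, 8.25 and 7.59 FPKM in WT and 1.30, 0.767 and 1.10 FPKM in mutant libraries, and Wnt9a at 27.3% of WT. Of the IGF axis and myokines 7 of 19 were lower (36.8%, against 5.98% of all genes tested). Igf1, the growth factor, was at 4.16, 4.03 and 3.41 FPKM in WT and 0.0349, 0.0652 and 0.0977 FPKM in mutant libraries (-2.19), and Igfbp3, which binds it, at 4.44, 4.12 and 4.25 FPKM in WT and 0.0158, 0.0442 and 0.0193 FPKM in mutant libraries. Igfbp5, the most abundant binding protein here, was at 732, 734 and 734 FPKM in WT and 1123, 1106 and 1204 FPKM in mutant cells (0.64).

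Of 13 imprinted genes tested 3 were lower (23.1%, against 5.98% of all genes tested) and 2 higher (15.4%, against 1.76%). H19, the imprinted non-coding RNA of the Igf2 locus, was at 5757, 5729 and 5837 FPKM in WT and 1657, 1683 and 1780.2 FPKM in mutant libraries (-1.76, standard error 0.04), and the call was lost with quantile normalization (-0.997). Zim1 (1.26) and Peg3 (1.02), zinc finger genes of one imprinted domain on chromosome 7, were higher. The call of Peg3, close to the fold threshold, was lost without WT replicate 2 or WT replicate 3. Of 19 genes of the SUMO pathway 0 were called by limma and 0 by edgeR, with 11 at an unadjusted p under 0.05. Of 19 HOX genes 0 were called by limma (10 at an unadjusted p under 0.05) and 4 of 22 by edgeR. Of 17 genes of interferon response and antigen presentation 0 were called by limma (10 at an unadjusted p under 0.05) and 7 of 25 by edgeR. Of these 7, 6 were higher, and edgeR called 5.09% of all genes higher. Ribosome biogenesis had 1 gene lower of 52 (1.92%, against 5.98% of all genes tested), Rrp12, at 21.3, 21.8 and 21.4 FPKM in WT and 10.1, 9.95 and 9.64 FPKM in mutant libraries (-1.05), and the call was lost with quantile normalization. Cholesterol synthesis had 2 lower of 22 (9.09%), Ebp (-1.66) and Dhcr7 (-1.58).

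Genes higher in the mutant were fewer and their differences smaller. Of the 10 protein-coding genes with the largest differences in that direction, Rhox5, an X-linked homeobox gene of the germline, was at 2.63, 2.86 and 2.85 FPKM in WT and 29.04, 27.8 and 26.5 FPKM in mutant libraries (2.93, standard error 0.05, adjusted p = 3.15e-08). Rcan2, an inhibitor of calcineurin, was at 8.19, 7.99 and 8.67 FPKM in WT and 59.9, 59.1 and 62.9 FPKM in mutant libraries (2.73), and Sema3c, a secreted semaphorin, at 16.1, 16.3 and 14.5 FPKM in WT and 88.95, 89.4 and 91.5 FPKM in mutant libraries (2.45). Ly6a, the surface antigen Sca-1 of several progenitor cells, was the most abundant of the 10, at 256, 258 and 282 FPKM in WT and 1204, 1207 and 1259 FPKM in mutant libraries (2.20). Groups that do not overlap were a condition for these 10, and 63.4% of all genes tested had such groups. The others were Gm773 (2.92), Man1a, a mannosidase of glycoprotein processing (2.82), Lpl (2.61), Magea5 (2.55), Gpnmb, a glycoprotein of the membrane (2.34), and Ccl2, a chemokine (2.22). Magea5 overlaps Magea2 on the same strand, and reads of the pair may not be separable. On the other side, the 10 largest also held Rbm24, an RNA-binding splicing regulator of muscle, at 63.1, 65.9 and 66.4 FPKM in WT and 0.396, 0.502 and 0.451 FPKM in mutant cells (-5.51), Colec12, a scavenger receptor (-5.34), and Cilp, a matrix protein of cartilage (-5.22).

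Markers of other cell types were counted beside these results. Of 24 germline genes 15 were listed and 5 tested, of which 3 were higher (Rhox5, Magea5 and Xlr4a), and the summed level was 4.56 to 4.96 FPKM in WT and 36.4 to 39.8 FPKM in mutant libraries, of which Rhox5 made up most. Of 17 fibroblast and smooth muscle genes 10 were tested, 1 higher (Ly6a) and 2 lower (Actg2 and Pi16), with sums of 2265 to 2386 FPKM in WT and 2610 to 2699 FPKM in mutant libraries. The higher mutant sum came from Ly6a, with means of 265 (WT) and 1223 (mutant) FPKM. Des, also counted here as a muscle gene, had means of 1161 (WT) and 920 (mutant) FPKM. By the adjusted p alone 2 of the 10 were higher and 6 lower. Acta2, smooth muscle alpha actin, was at 787, 832 and 808 FPKM in WT and 428, 440.3 and 431 FPKM in mutant libraries (-0.90), while Tagln, another defining gene, lay below 0.5 FPKM in all 6 libraries. Pancreatic beta and endocrine cell genes summed to 73.8 to 81.6 FPKM in WT and 123 to 128 FPKM in mutant libraries; 18 of 35 were listed, 6 tested, and 1 was higher, Cpe, a carboxypeptidase of secretory granules (1.12), while edgeR called 4 of 9 higher and 2 lower. The higher mutant sum came mainly from Cpe, with means of 46.7 (WT) and 102 (mutant) FPKM. Ins2, an insulin gene, was at 2.39, 1.92 and 3.76 FPKM in WT and 5.54, 5.03 and 4.52 FPKM in mutant libraries (0.74, adjusted p = 0.00903), under the fold threshold. Mafa, of the same list, went the other way, with means of 24.1 (WT) and 12.4 (mutant) FPKM (-0.90), also under that threshold. By the adjusted p alone 3 of the 6 were higher and 1 lower.

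Pancreatic acinar genes summed to 43.7 to 49.4 FPKM in WT and 9.63 to 36.1 FPKM in mutant libraries, and 12 of 14 were listed. Ctrb1, chymotrypsinogen B, made up most of the WT sum, at 39.3, 41.9 and 44.2 FPKM in WT and 2.53, 11.6 and 1.17 FPKM in mutant libraries, with mutant replicate 2 the highest mutant library (-3.22, standard error 0.57). Adipocyte genes were listed for 3 of 11 and summed to 13.2 to 14.1 FPKM in WT and 19.4 to 20.2 FPKM in mutant libraries, with Plin4, a lipid droplet protein, higher (1.78). The higher mutant sum came mainly from Plin4, with means of 2.07 (WT) and 9.50 (mutant) FPKM. Cebpa went the other way, with means of 7.74 (WT) and 4.87 (mutant) FPKM (-0.57), under the fold threshold. By the adjusted p alone 2 of the 3 were higher and 1 lower. Neuron and glia genes summed to 47.1 to 56.7 FPKM in WT and 58.4 to 59.2 FPKM in mutant libraries, with Nefl and Gap43 lower of 7 tested by limma and, by edgeR, 3 of 9 higher and 2 lower, and the call of Gap43 was lost without WT replicate 2. Sums for pluripotent cells were 70.2 to 74.8 and 86.98 to 92.4 FPKM, almost all from Klf4, with Sox2 at 0 in all mutant libraries. Of these genes 0 of 1 tested was called by limma. By edgeR 2 of 4 were higher and 0 lower, and DESeq2 called 2 higher and 2 lower. Osteoblast and chondrocyte genes summed to 25.6 to 27.4 and 35.5 to 36.97 FPKM, with 0 called of 2 by limma (1 at an unadjusted p under 0.05) and 0 by edgeR. Blood, endothelial and epithelial genes summed to 9.72 to 11.4 and 6.94 to 8.48 FPKM, with 0 called of 4 by limma (3 at an unadjusted p under 0.05) and 2 of 6 by edgeR. The part of other cell types in the differences above was not tested.

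Genes called lower were spread over the chromosomes. Between 3.85% (chromosome 17) and 9.21% (chromosome 1) of the tested genes of a nuclear chromosome were lower, and between 0.897% (chromosome 14) and 4.10% (chromosome 15) were higher. Median log2 differences per chromosome ranged from -0.22 (chromosome 16) and -0.20 (chromosome 13) to 0.19 (chromosome 3). Over the 20 nuclear chromosomes the edgeR medians at d4 and d0 had the same sign for 19. Their Pearson correlation was 0.86 and the Spearman rho 0.84, over 20 points that share clone, library preparation and WT line within each day. By gene class, 706 of the lower genes were protein-coding and 31 were lincRNAs, and of the higher genes 189 were protein-coding, with 9 snoRNA and 9 miRNA genes, in poly(A) libraries that do not measure mature small RNAs.

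The difference at d4 was set beside that at d0 to show which differences were also present before differentiation. Among 12698 genes tested on both days, edgeR over all 12 libraries called 1173 lower at d4 (9.24%) and 985 at d0 (7.76%), and 493 were lower on both, which is 42.03% of the d4 and 50.05% of the d0 genes. Higher genes numbered 505 at d4 (3.98%) and 287 at d0 (2.26%), with 108 on both, 21.4% and 37.6%. Of those lower at d4, 48 were higher at d0, and of those higher at d4, 48 were lower at d0. This count at d4 was chosen after seeing the data, so that both days come from 1 test. The 2 comparisons use separate libraries but the same clone and WT line. The difference between days was then tested for 33 genes, by the interaction of genotype and day over all 12 libraries (edgeR), and 21 passed an adjusted p under 0.05. Over all 15114 genes in that test 6835 (45.2%) passed. The 33 are Pgam2, Pgam1, Myh4, Cav3, Myf5 and, of each list, the called gene with the largest difference at d4, a choice that favours differences larger at d4.

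Pgam2 differed in opposite directions on the 2 days. At d0 it was at 3.15, 2.71 and 3.15 FPKM in WT and 4.69, 6.76 and 3.98 FPKM in mutant libraries, a log2 difference of 0.79 by edgeR, against -3.59 at d4, and the change of the difference was -4.39 (standard error 0.21, adjusted p = 3.48e-12). Fgf21 was at 5.11, 4.14 and 4.76 FPKM in WT and 1.46, 1.49 and 3.51 FPKM in mutant libraries at d0, a difference of -1.11, and -9.12 at d4. Sesn2 was higher in the mutant at d0 (0.46) under the fold threshold and lower at d4 (-2.29). Rrp12 also turned from 0.90 to -1.12 and Nefl from 0.87 to -2.22. Myog was lower on both days, at 26.1, 21.1 and 19.1 FPKM in WT and 0.409, 0.457 and 0.809 FPKM in mutant libraries at d0, a difference of -5.29 at d0 and -3.47 at d4 (change 1.83, adjusted p = 2.85e-06). Bgn and Col1a1 likewise had smaller differences at d4 than at d0, with changes of 3.08 and 1.54. The change of Mymx was 2.81 by edgeR, from -5.34 at d0 to -2.54 at d4, and it turned to -0.34 on the log2(FPKM + 1) scale. Myf5 had a difference of -0.35 at d0 and 1.38 at d4. For Myh1, Myh4, Actn2, Mb, Actc1 and Cav3 the differences on both days were below -3, and the change between days did not pass by edgeR, with each at under 0.5 FPKM in every mutant library at d0. Levels in WT at d0 were also low, with means of 0.154 FPKM for Myh4, 0.247 FPKM for Actn2 and 0.335 FPKM for Cav3. Myh4 and Actn2 had no read in any mutant library at d0, so their fitted differences at d0 rest on counts of 0 and are no measure of size, and the standard errors of the change were 3.23 and 5.09. For Actc1 the change reversed on the log2(FPKM + 1) scale (-1.48).

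**Figure D5:**
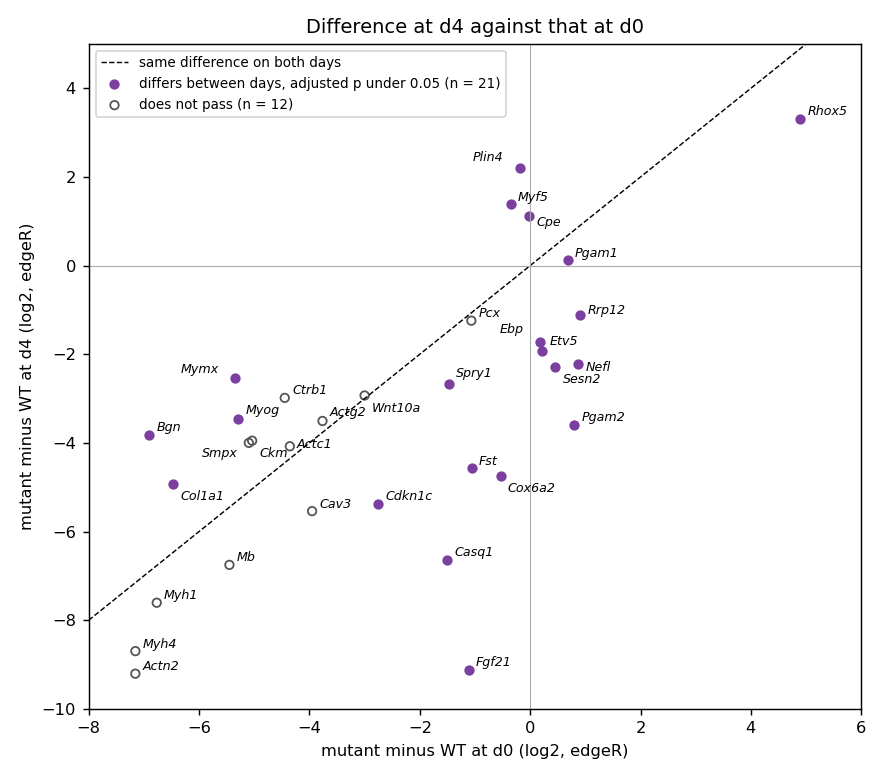
Log2 difference between mutant and WT cells at d0 (x axis) and d4 (y axis) from edgeR over 12 libraries for 33 genes, with filled points where the difference between days passed an adjusted p under 0.05 and the dashed line where both days are equal. Fgf21, Casq1, Pgam2 and Cox6a2 lie far below the line, Bgn and Mymx above it (Mymx not on the log2(FPKM + 1) scale), and Rhox5 is higher on both days.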

How the data were processed

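Poly(A)-selected RNA extracted with Trizol from C2C12 cells was sequenced as paired-end Illumina reads. Per the submitters' processing notes mm10 and DESeq2 1.20.0 were used; the sources used here name no aligner or counter and do not say whether strand was used. Raw counts of reads for each gene were deposited by the authors, as were FPKM values, scaled by gene length and by a factor per library. In the deposited table of WT cells at d4, all 3 count columns are headed with mutant library names and repeat their counts in 100% of genes. They were not used as WT. WT reads were worked back from FPKM and gene length, and 100% of values came out whole within 0.01 reads. The deposited tables also hold fold changes and p-values of the authors' own comparisons, which were not used. No other per-sample column was left out (0).

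Genes with at least 0.5 FPKM in 3 of the 6 libraries were tested with limma 3.58.1 (eBayes with trend, R 4.3.3) on log2(FPKM + 1) with Benjamini-Hochberg adjustment, and called at an adjusted p under 0.05 and an absolute log2 difference above 1. This test was used for every adjusted p not credited to edgeR. edgeR 4.0.16 (quasi-likelihood, TMM) and DESeq2 1.42.0 on reads, other pseudocounts, no filter, quantile normalization, a replicate block and leaving out each library were alternatives. The difference between days was tested with edgeR on reads. Scripts were tested on simulated data. Depth was 16098407 to 20748164 reads per library at d4, and bounds against 0 cover counting error only.

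The members and gene lists were chosen with earlier results of these data known. Named genes are Pgam2, Pgam1, Myh4, Cav3 and Myf5, the 10 largest differences each way among called protein-coding genes (no overlap between groups, higher group mean 1 FPKM or above), and from every list the 5 called genes that differed most, at the same minimum, plus the 3 most abundant genes without a call, or as many as there were. Acta1, Actn3, Ampd1, Ampd3, Asns, Atf4, Cacna1s, Loxl2, Myh3, Myl1, Myot, Phgdh, Pnlip, Psat1, Psph, Ryr1, Slc3a2, Tagln, Thbs2, Trdn, Try4, Ttn and others given only by name were added after their values were seen. Of 242 named genes 85 overlap another listed gene, among them Actc1, Casq1, Ckm, Mb, Myh1, Col12a1 and Cox6a2, and reads of such pairs may not be separable without strand. Promoter sequences are from RefSeq (GRCm38.p6).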

Additional observations from a re-analysis of the deposited data

Results flagged for a closer look

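For 21 of the 33 genes tested, the difference between mutant and WT cells was not the same at d4 and d0 (interaction of genotype and day over 12 libraries, edgeR, adjusted p under 0.05, against 45.2% of all genes in that test). Each value below is the log2 difference at d4 minus that at d0.

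The values were below 0 for 14 genes. Muscle genes among them were Pgam2 (-4.39), Casq1 (-5.13) and Cox6a2 (-4.20), and Pgam1 was at -0.57. Fgf21 (-8.001) and Sesn2 (-2.74) are of the stress response, and Cdkn1c (-2.61) is an inhibitor of the cell cycle. Signalling genes were Fst (-3.51), Etv5 (-2.14) and Spry1 (-1.19). The others were Nefl (-3.09), Rrp12 (-2.03), Ebp (-1.90) and Rhox5 (-1.58).

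The values were above 0 for 7 genes. Bgn (3.08) and Col1a1 (1.54) are matrix genes, and Myog (1.83), Myf5 (1.73) and Mymx (2.81) are muscle genes, of which Mymx had the opposite sign on the log2(FPKM + 1) scale. Plin4 (2.40) and Cpe (1.15) were the remaining genes called at d4.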

How the results depend on the processing

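Dropping the fold threshold moved the counts most, followed by reads in place of log2(FPKM + 1) and the pseudocount. Genes higher in the mutant numbered 233, against 721 with edgeR, 690 with DESeq2, 497 with a pseudocount of 0.1, 70 with a pseudocount of 5 and 3500 with no fold threshold. Lower genes numbered 792, against 1537, 1760, 1193, 369 and 3886. The cause was not tested, apart from the pseudocount, which by its construction shrinks differences at low levels. With no filter the counts were 223 and 788, and with quantile normalization, which moved the median of all genes to 0.078, 300 and 706. Leaving out 1 library gave 233 to 253 higher and 791 to 803 lower genes. Same-numbered libraries did not deviate together (correlations 0.055, -0.0026 and 0.020), so the numbers were not taken as pairs, and with a replicate block 238 were higher and 794 lower. Among 242 named genes, 29 lost their call with a pseudocount of 5 and 5 with quantile normalization (Chrnd, Gadd45a, Gap43, H19 and Rrp12). With a pseudocount of 5 the number of lower members was smaller by over 1.5 times in excitation-contraction coupling (17 to 10), BMP and TGF-beta signalling (10 to 5), Wnt signalling (7 to 2), the IGF axis (7 to 4), glycogen and phosphocreatine (8 to 5), myogenic factors (7 to 4), cell cycle exit (4 to 1), the neuromuscular junction (5 to 2), muscle progenitors (5 to 3), collagens (5 to 3), oxidative phosphorylation (5 to 3), imprinted genes (3 to 1), the TCA cycle (1 to 0), ribosome biogenesis (1 to 0) and the fibroblast (2 to 1) and neuron (2 to 0) markers. Higher members became fewer in excitation-contraction coupling (1 to 0), collagens (2 to 0), imprinted genes (2 to 1) and germline markers (3 to 2). Imprinted genes lower were 6 with edgeR. The difference between days turned its sign on the log2(FPKM + 1) scale for Actc1 (-1.48), Ckm (-2.88), Ctrb1 (-2.23), Mymx (-0.34) and Smpx (-3.19), and the cause was not tested. Levels below about 1 FPKM limit the folds of genes near 0 in the mutant.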
